A study of Mus musculus with 28 samples.

Results

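The genes described here are 10 markers of Kupffer cells and of macrophages in general, Clec4f, Vsig4, Cd5l, Timd4, Marco, C1qa, C1qb, Adgre1, Csf1r and Cd68. They were taken by symbol from a table of 17792 genes measured by RNA sequencing of whole mouse liver in 28 libraries, and all 10 were present. Kupffer cells are the resident macrophages of the liver sinusoids. They clear bacteria, spent red cells and lipid from portal blood, and signals from neighbouring endothelial, stellate and liver cells maintain their identity. The nuclear receptor PPARgamma, encoded by Pparg, controls lipid handling genes in macrophages.

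The mice were of the C57BL/6 strain. They were macrophage-specific Pparg knockouts (KO) or wild type (WT), and were gavaged with 625 mg/kg of DEHP, or di(2-ethylhexyl) phthalate, a softener of plastics that acts on rodent hepatocytes through PPARalpha, or with the vehicle, carboxymethyl cellulose (CMC) at 0.5%. The 8 groups were KO DEHP, KO CMC, WT DEHP and WT CMC at 28 days, with 3 libraries each (replicates 5 to 7), and the same 4 at 90 days, with 4 libraries each (replicates 1 to 4). Which gene drives the deletion, the age of the mice and which of the 12 mice per group gave which library are not given in the sources used here, so p-values measure the spread between these libraries, which may be technical. Values are the authors' FPKM, fragments scaled for transcript length and for library size.

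The FPKM of a library summed to 514267 to 547757 at 28 days and 573429 to 647703 at 90 days. Depth, read from steps between low values, was approximately 9.27 to 14.76 M fragments (M, 1e6). Pparg itself ran from 4.72 to 5.54 FPKM in KO DEHP and from 4.33 to 7.65 FPKM in WT DEHP, and from 1.61 to 3.81 FPKM in KO CMC and from 2.69 to 2.89 FPKM in WT CMC at 28 days. At 90 days it ran from 4.37 to 6.69 FPKM in KO DEHP and from 4.18 to 5.58 FPKM in WT DEHP, and from 1.51 to 3.58 FPKM in KO CMC and from 1.51 to 5.20 FPKM in WT CMC. The genotypes overlapped in all 4 strata, so whole liver Pparg does not check the labels. Lyz2, a lysozyme of macrophages and neutrophils, averaged 1.25 to 1.89 FPKM in the 4 KO groups and 57.2 to 86.9 FPKM in the 4 WT groups. Hepatocyte markers summed to at least 36930 FPKM in every library. Xist, an RNA of female cells, lay between 26.7 and 41.0 FPKM in all 12 libraries of 28 days and at 0.02 FPKM or less in all 16 of 90 days, although every label gives male mice, so sex and time cannot be told apart and the times were not compared. Transcripts of exocrine pancreas held 1.39% to 5.90% of summed FPKM in KO DEHP replicates 1, 2 and 3, WT DEHP replicate 4 and WT CMC replicate 4 of 90 days, and under 0.01% in the other 23 libraries. Summed sinusoidal endothelial markers were 0.288 of the group median in WT DEHP replicate 5 and 0.374 in WT CMC replicate 7 at 28 days, and 0.468 in KO DEHP replicate 4 at 90 days. Counts and medians of the 10 genes are given with and without these libraries.

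The RefSeq table used here holds a promoter window, from 250 bases before to 50 bases after the gene start, for 7 of the 10 genes, all but C1qa, Adgre1 and Csf1r. Windows of 4 genes whose levels are followed below are shown because the genes varied together between libraries. They are on GRCm38.p6 and run 5′ to 3′ along the gene's own strand, and capitals mark the letters GAGGAA on either strand, a core that the macrophage factor PU.1 and other ETS factors bind. The Clec4f window lies at chr6:83656067-83656366 on the minus strand, that of Vsig4 at chrX:96293389-96293688 on the minus strand, that of Cd5l at chr3:87357631-87357930 on the plus strand and that of C1qb at chr4:136886151-136886450 on the minus strand.

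Clec4f: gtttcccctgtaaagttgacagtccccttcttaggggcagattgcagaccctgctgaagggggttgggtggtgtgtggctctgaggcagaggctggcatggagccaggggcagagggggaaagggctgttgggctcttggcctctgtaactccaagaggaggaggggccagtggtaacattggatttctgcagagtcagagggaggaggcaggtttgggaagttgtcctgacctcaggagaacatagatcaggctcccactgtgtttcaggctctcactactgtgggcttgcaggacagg

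Vsig4: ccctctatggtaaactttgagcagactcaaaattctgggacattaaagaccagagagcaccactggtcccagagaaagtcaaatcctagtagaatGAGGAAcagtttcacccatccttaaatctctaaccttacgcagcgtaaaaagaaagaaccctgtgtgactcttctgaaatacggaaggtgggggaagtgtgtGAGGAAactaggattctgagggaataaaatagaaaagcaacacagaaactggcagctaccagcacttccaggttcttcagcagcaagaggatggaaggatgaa

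Cd5l: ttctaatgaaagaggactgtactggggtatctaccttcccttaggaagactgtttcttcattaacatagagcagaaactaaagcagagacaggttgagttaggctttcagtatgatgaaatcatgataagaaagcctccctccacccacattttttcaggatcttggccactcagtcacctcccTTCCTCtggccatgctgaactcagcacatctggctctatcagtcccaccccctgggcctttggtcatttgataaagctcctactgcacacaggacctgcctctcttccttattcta

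C1qb: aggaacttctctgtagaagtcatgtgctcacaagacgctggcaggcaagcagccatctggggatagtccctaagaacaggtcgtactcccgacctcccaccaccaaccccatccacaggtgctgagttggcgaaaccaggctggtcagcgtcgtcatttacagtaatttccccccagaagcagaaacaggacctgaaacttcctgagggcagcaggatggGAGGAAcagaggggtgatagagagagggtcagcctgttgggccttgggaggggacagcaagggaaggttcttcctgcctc

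GAGGAA begins 30 bases before the start of C1qb, 155 and 53 bases before the start of Vsig4, and on the other strand 66 bases before the start of Cd5l. The Clec4f window did not hold these letters. In all, 5 of the 7 windows held GAGGAA (Marco, Cd5l, C1qb, Cd68 and Vsig4), against 28.3% of 32851 mouse promoter windows of the same length. The longer GAGGAAGT was in 0 of the 7 and in 3.20% of all windows. A match in a window is a description of its letters.

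Among the genes most tied to Kupffer cells, Cd5l was the most abundant and Timd4 the least. Cd5l (Entrez 11801, chromosome 3, 87357881 to 87371074 on GRCm38.p6), a secreted scavenger-type protein also called AIM, averaged 60.5 FPKM over the 8 groups. Clec4f (Entrez 51811, chromosome 6, 83644542 to 83656116), a lectin that in mice marks Kupffer cells, averaged 49.1 FPKM. Vsig4 (Entrez 278180, chromosome X, 96247201 to 96293438), a receptor that takes up particles coated with complement, averaged 22.9 FPKM. Marco (Entrez 17167, chromosome 1, 120474538 to 120505024), a scavenger receptor that binds bacteria, averaged 7.47 FPKM, and Timd4 (Entrez 276891, chromosome 11, 46810786 to 46844333), which binds phosphatidylserine on dying cells and marks long-lived Kupffer cells, 3.16 FPKM.

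Among the broader macrophage genes, the complement genes led. C1qb (Entrez 12260, chromosome 4, 136880126 to 136886200) and C1qa (Entrez 12259, chromosome 4, 136895916 to 136898844), chains of the C1q complex that starts the classical complement pathway, averaged 55.5 and 55.4 FPKM. Csf1r (Entrez 12978, chromosome 18, 61105572 to 61131139), the receptor for the survival signals Csf1 and Il34, averaged 16.8 FPKM. RefSeq also lists a pseudogene copy of Csf1r, and whether reads were shared with it was not tested. Cd68 (Entrez 12514, chromosome 11, 69664213 to 69666170), a glycoprotein of lysosomes, averaged 7.99 FPKM and Adgre1 (Entrez 13733, chromosome 17, 57358581 to 57483529), the F4/80 antigen, 7.003 FPKM.

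FPKM are per length of transcript, so the levels can be ordered between genes. Clec4f stood above Vsig4, Vsig4 above Csf1r, Csf1r above Cd68 and Adgre1 above Timd4 in 28 of 28 libraries. The neighbours at the top did not separate, since Cd5l exceeded C1qb in 18, C1qb exceeded C1qa in 14 and C1qa exceeded Clec4f in 21 of 28 libraries. Cd68 exceeded Marco in 23 of 28. Marco had a higher mean than Adgre1 but exceeded it in only 8 of 28 libraries, because a few libraries were very high in Marco. The lowest value of any of the 10 genes, 1.54 FPKM for Timd4 in WT DEHP replicate 4 at 90 days, stood for about 33 fragments. Counting noise bears most on the genes with the fewest approximate fragments, Timd4, Marco and Cd68. Adgre1 had a lower mean FPKM than Cd68 but a longer transcript, 3.24 kb against 1.23 kb.

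**Figure D1:**
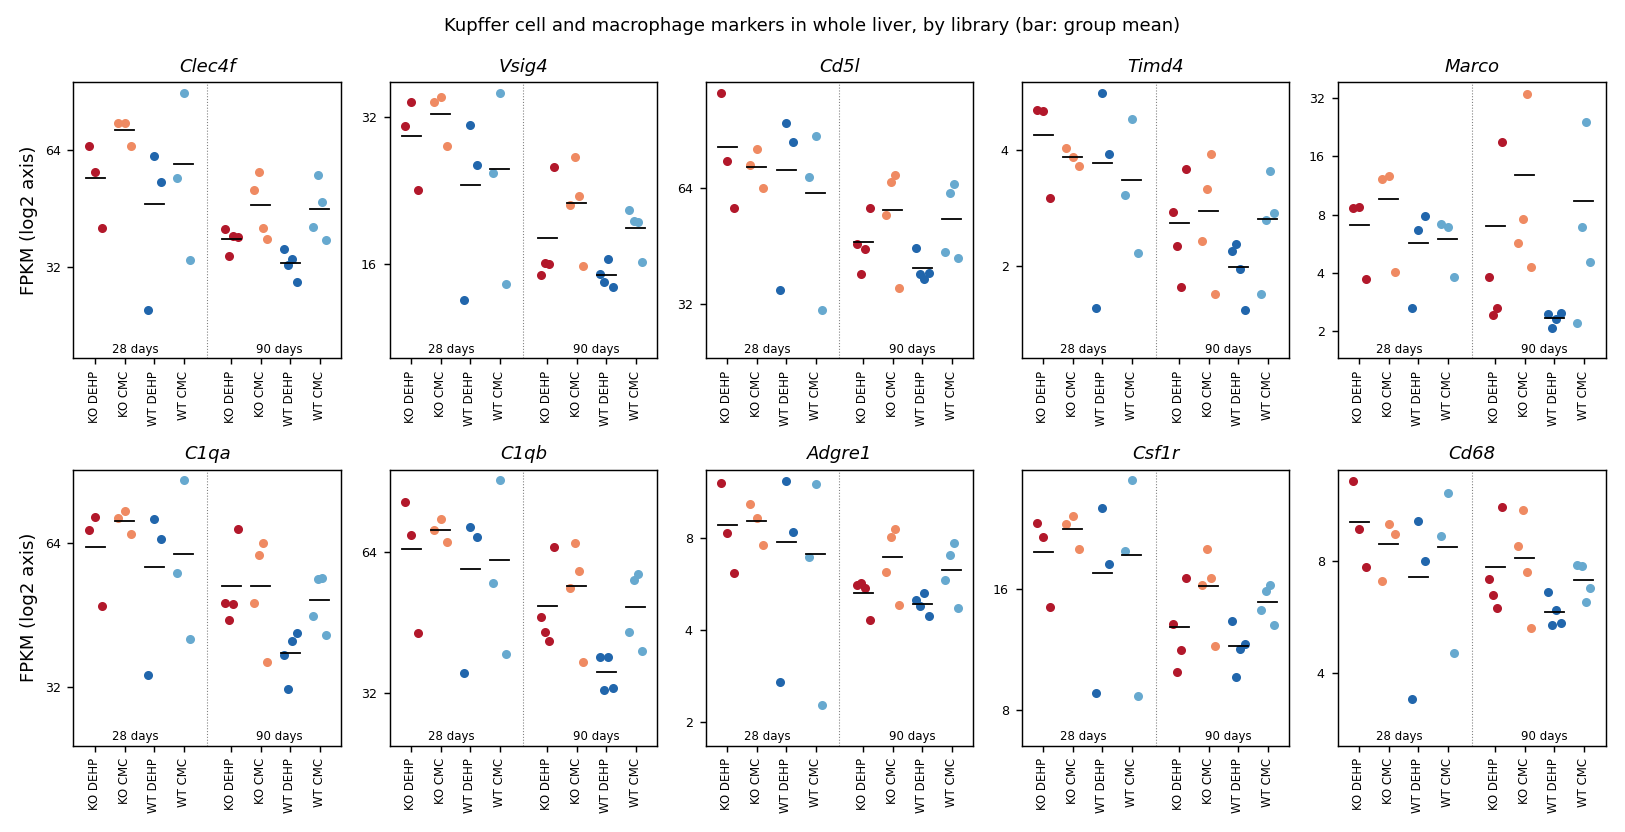
FPKM on a log2 axis of the 10 markers in each library (points, n = 3 per group at 28 days and n = 4 at 90 days), with bars at the group means. Groups overlap for most genes, and the spread is widest in the WT groups of 28 days and, for Marco, at 90 days.

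At 28 days the 2 WT groups were each split by 1 low library. Clec4f had 24.8, 61.7 and 52.8 FPKM in WT DEHP replicates 5, 6 and 7, and 54.0, 89.4 and 33.4 FPKM in WT CMC. C1qb had 35.4, 72.5 and 68.7 FPKM in WT DEHP, and 55.0, 91.0 and 38.9 FPKM in WT CMC. Adgre1 had 2.70, 12.25 and 8.32 FPKM in WT DEHP and 6.93, 12.0 and 2.28 FPKM in WT CMC. The low libraries, WT DEHP replicate 5 and WT CMC replicate 7, were below their group mean for all 10 genes, by 0.787 and 0.693 on average on the log2(FPKM + 1) scale. They are the same libraries that were low in endothelial markers, with summed stellate markers of 81.4 and 146 FPKM against 146 to 157 FPKM in the other WT DEHP and 205 to 279 FPKM in the other WT CMC libraries. The part that this played in the results below was not tested beyond leaving the libraries out.

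The KO groups of 28 days were closer together. Clec4f had 65.45, 56.2 and 40.3 FPKM in KO DEHP replicates 5, 6 and 7 and 75.0, 75.0 and 65.54 FPKM in KO CMC. C1qb had 81.8, 69.5 and 43.1 FPKM in KO DEHP and 71.3, 75.3 and 67.3 FPKM in KO CMC. KO DEHP replicate 7 was below its group mean for all 10 genes, by 0.433 on average, with endothelial markers at 0.849 of the group median.

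At 90 days the WT DEHP libraries lay close together. Across its 4 libraries the coefficient of variation ran from 5.89% for Vsig4 to 16.5% for Timd4, whereas in WT CMC it ran from 10.3% for Vsig4 to 105% for Marco. In KO CMC replicate 4 all 10 genes were below the group mean, by 0.499 on average, with endothelial markers at 0.928 of the group median. KO DEHP replicate 4 stood apart in another way. It was low in endothelial markers yet above its group mean for 9 of the 10 genes, by 0.449 on average over the 10, and below it for Adgre1. It is also the only KO DEHP library of 90 days without pancreas transcripts.

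**Figure D2:**
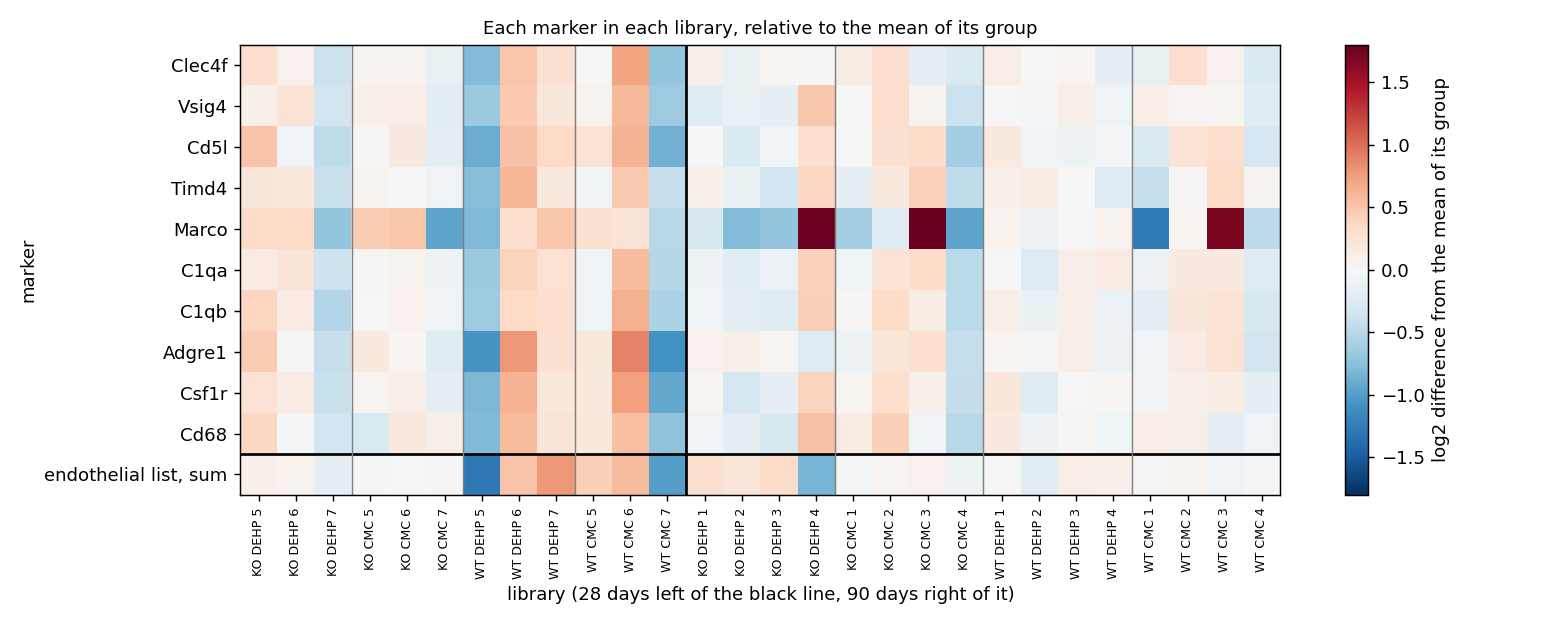
Colour gives the log2(FPKM + 1) difference of each marker (lines) in each library (columns) from the mean of its group, with the summed endothelial list in the bottom line. WT DEHP replicate 5 and WT CMC replicate 7 at 28 days are low throughout, and KO DEHP replicate 4 at 90 days is low in the endothelial sum but high in most markers.

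The 10 genes varied together within groups. After group means were removed, the correlation of log2(FPKM + 1) over the 28 libraries was positive for all 45 pairs, from 0.344 for Clec4f and Marco to 0.949 for C1qa and C1qb. All pairs without Marco were at 0.748 or above, and pairs with Marco ran from 0.344 to 0.724. Within the 12 libraries of 28 days the pairs ran from 0.604 to 0.987, and within the 16 of 90 days from 0.125 to 0.915. These are descriptions over libraries that share their depth and their content of other cells, and in whole tissue fewer cells of a type and less RNA per cell cannot be told apart. The signs of the 10 genes in any comparison are therefore not 10 separate observations.

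The other genes whose within-group pattern was most like the mean of the 10, over the same 28 libraries, were C1qc (r = 0.966), the remaining C1q chain, Ctss (0.962), a lysosomal protease, Cybb (0.957), the catalytic subunit of the phagocyte oxidase, Nckap1l (0.952), a blood cell actin regulator, and Itgal (0.939), an integrin of white cells. Lyz2, chosen after its values were seen, had r = 0.908. It thus followed the markers within groups although its level in KO livers was a small fraction of that in WT livers.

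Marco had the lowest correlations over the 28 libraries. Within the libraries of 90 days it was tied to Timd4 (0.843), C1qa (0.764) and Cd5l (0.763), but only loosely to Clec4f (0.125) and Cd68 (0.297). Adgre1 with Cd68 (0.143) and Clec4f with Timd4 (0.315) were also among the looser pairs there. At 90 days Marco had 3.8, 2.43, 2.62 and 18.96 FPKM in KO DEHP replicates 1 to 4 and 5.69, 7.59, 33.55 and 4.26 FPKM in KO CMC. In WT it had 2.46, 2.08, 2.30 and 2.47 FPKM under DEHP and 2.20, 6.92, 23.95 and 4.54 FPKM under CMC. A single library thus stood far above the rest in 3 of the 4 groups, and none did in WT DEHP. Summed neutrophil markers in those libraries were 11.7 FPKM in KO DEHP replicate 4, 8.26 FPKM in KO CMC replicate 3 and 2.78 FPKM in WT CMC replicate 3, all under the highest sums of 47.8 and 45.2 FPKM in replicates 1 of KO CMC and WT CMC. At 28 days Marco had 8.65, 8.72 and 3.73 FPKM in KO DEHP, 12.2, 12.6 and 4.02 FPKM in KO CMC, 2.62, 6.62 and 7.89 FPKM in WT DEHP and 7.17, 6.93 and 3.79 FPKM in WT CMC.

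The first comparison asked whether deletion of Pparg in macrophages changed the level of macrophage markers in liver. It did so for none of the 10 genes by the test used, limma on log2(FPKM + 1) with Benjamini-Hochberg adjustment over 11213 genes and a threshold of 0.05. Under DEHP at 28 days 0 of 10 were called, where 0.0178% of all genes were. Under CMC at 28 days 0 of 10 were called, against 0.0446% of all genes. At 90 days the counts were 0 of 10 under DEHP, against 0.508% of all genes, and 0 of 10 under CMC, against 0.00892%. Over the mean of the 4 strata 0 of 10 were called, against 0.392% of all genes. With so few calls among all genes, these counts of 0 stand near the background.

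The fitted log2 differences, KO over WT, were positive for all 10 genes in each of the 4 strata, also under both other scalings. With libraries weighted by their spread, 3 of 10 were positive under DEHP at 28 days, with a median of -0.12. Their medians were 0.28 under DEHP and 0.35 under CMC at 28 days, and 0.23 under DEHP and 0.11 under CMC at 90 days, against medians over all genes tested of 0.05, 0.07, 0.05 and 0.02. Over the mean of the 4 strata the smallest p was that of Vsig4, with a log2 difference of 0.29, SE 0.12, unadjusted p = 0.0247 and adjusted p = 0.333. C1qa followed with 0.25, SE 0.12, unadjusted p = 0.0499 and adjusted p = 0.395, and the other 8 genes had unadjusted p above 0.05. Clec4f had 0.23 with a 95% interval from -0.04 to 0.49.

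Part of this difference rested on 3 libraries. Without the libraries low in endothelial markers, the median difference of the 10 genes was -0.13 under DEHP at 28 days, with 2 of 10 positive, and 0.00 under CMC at 28 days, with 5 of 10 positive. It was 0.16 under DEHP at 90 days, with 9 of 10 positive, and 0.04 over the mean of the strata, with 8 of 10 positive. The 13 endothelial markers moved with the 10 genes at 28 days, with 13 of 13 positive and medians of 0.42 under DEHP and 0.46 under CMC, and 0 of 13 called. At 90 days 7 of 13 were positive under CMC. Under DEHP at 90 days 12 of 13 were negative, with a median of -0.16, but this included KO DEHP replicate 4, low in these markers. Their sum was 81.3 FPKM in that library and 169 to 183 FPKM in the other KO DEHP libraries, against 137 to 171 FPKM in WT DEHP. The endothelial count and median without that library are not given here. Without the libraries holding pancreas transcripts the medians at 90 days were 0.61 under DEHP, where KO DEHP is replicate 4 alone, and 0.04 under CMC.

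The C1q chains were the genes whose genotypes did not overlap, at 90 days under DEHP, although the fitted difference of Marco was larger there (0.82, SE 0.59, adjusted p = 0.621). C1qa had 48.0, 44.3, 47.6 and 68.7 FPKM in KO DEHP and 37.2, 31.6, 39.9 and 41.6 FPKM in WT DEHP. C1qb had 46.5, 43.1, 41.4 and 65.5 FPKM in KO DEHP and 38.2, 32.6, 38.2 and 32.9 FPKM in WT DEHP. All KO libraries lay above all WT libraries for these 2 genes, as for 5.64% of all genes tested, and for none of the other 8. The fitted log2 differences of 0.45 (SE 0.22) for C1qa and 0.44 (SE 0.24) for C1qb had adjusted p of 0.441 and 0.484. Without the 3 libraries low in endothelial markers, KO DEHP replicate 4 among them, they were 0.31 for C1qa and 0.29 for C1qb, with adjusted p of 0.475 and 0.563. Without the libraries holding pancreas transcripts, which leaves KO DEHP replicate 4 alone, they were 0.91 and 0.84, with adjusted p of 0.436 and 0.535. Under CMC at 90 days C1qa had 47.9, 60.5, 64.0 and 36.1 FPKM in KO and 45.0, 54.0, 54.2 and 41.1 FPKM in WT, which overlapped.

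Levels of the other genes at 90 days under DEHP overlapped between the genotypes. Vsig4 averaged 18.1 ± 4.8 FPKM in KO DEHP and 15.2 ± 0.893 FPKM in WT DEHP (SD, n = 4 each). Cd5l averaged 46.5 ± 7.76 FPKM in KO DEHP and 39.7 ± 3.38 FPKM in WT DEHP. Cd68 averaged 7.71 ± 2.37 FPKM in KO DEHP and 5.84 ± 0.563 FPKM in WT DEHP, and Csf1r averaged 12.8 ± 3.07 FPKM in KO DEHP and 11.5 ± 1.5 FPKM in WT DEHP. Replicate 4 was the highest KO DEHP library in each of these genes, with 25.3 FPKM of Vsig4, 57.0 FPKM of Cd5l, 11.2 FPKM of Cd68 and 17.0 FPKM of Csf1r.

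By contrast Lyz2, which stood on the list of monocyte and recruited macrophage markers, was lower in KO livers in every stratum. Its log2 differences were -4.55 under DEHP and -5.05 under CMC at 28 days and -4.70 under DEHP and -5.05 under CMC at 90 days, with a highest adjusted p of 3.76e-10. It was the only gene of 15 further gene lists called between the genotypes in any stratum or in their mean. The other 9 tested genes of its list were not called, and Cx3cr1 and Gpnmb of that list were under 1 FPKM in every library. Why Lyz2 differed was not tested. Which gene drives the deletion is not given, so an effect of the knockout allele on Lyz2 and a response to Pparg loss cannot be told apart.

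**Figure D3:**
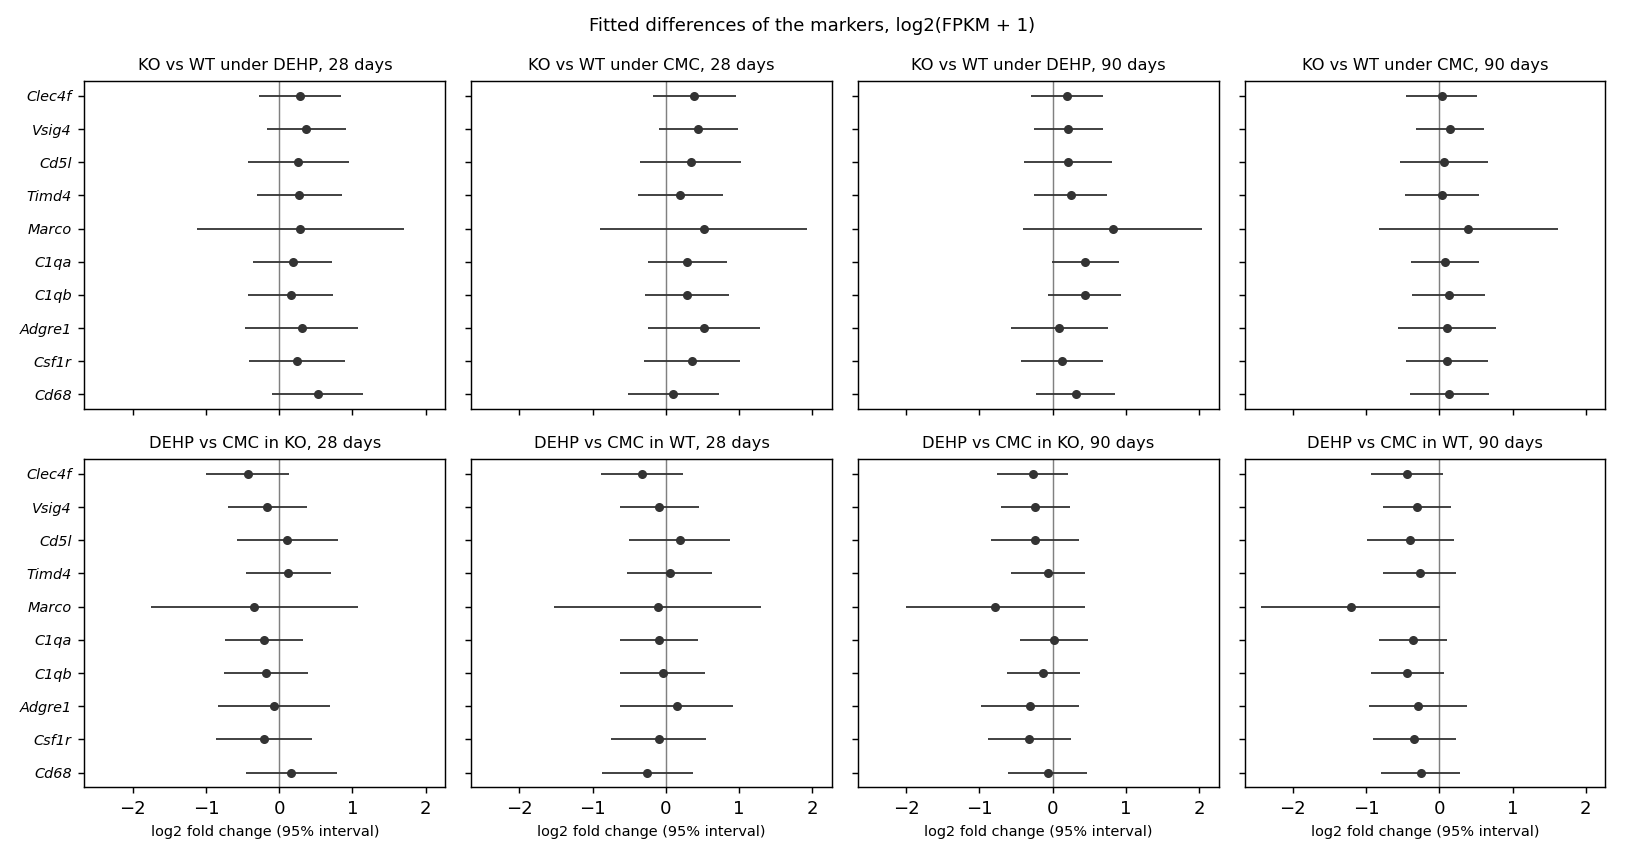
Fitted log2 fold changes on the log2(FPKM + 1) scale with 95% intervals for the 10 markers, KO over WT in the upper panels and DEHP over CMC in the lower panels. All 10 points lie above 0 in each KO against WT panel and all 10 lie below 0 for DEHP in WT at 90 days, but none of these strata held a call.

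The second comparison asked what the plasticizer did to the markers. Within single strata it changed none of them past the threshold. The counts were 0 of 10 in KO at 28 days, where 20.4% of all genes were called, 0 of 10 in WT at 28 days against 16.5%, 0 of 10 in KO at 90 days against 5.65% and 0 of 10 in WT at 90 days against 6.8%. The medians of the 10 log2 differences, DEHP over CMC, were -0.17 in KO and -0.09 in WT at 28 days and -0.24 in KO and -0.35 in WT at 90 days, against -0.04, -0.01, 0.03 and -0.01 over all genes. In WT at 90 days all 10 were negative. With libraries weighted by their spread the median in WT at 28 days was 0.19, with 8 of 10 positive. Without the libraries low in endothelial markers it was -0.01 there and -0.28 in KO at 90 days. Without those holding pancreas transcripts it was 0.28 in KO at 90 days, where KO DEHP is replicate 4 alone, and -0.44 in WT.

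Over the mean of the 4 strata Clec4f was lower under DEHP and was the only one of the 10 genes called, where 36.1% of all genes were. Its log2 difference was -0.37 (SE 0.13, adjusted p = 0.0272). All 10 differences were negative, with a median of -0.18 against -0.02 over all genes. The other 9 ran from -0.61 for Marco (SE 0.32, adjusted p = 0.142) to -0.04 for Timd4 (SE 0.13, adjusted p = 0.847). One call among 10 genes is a smaller share than the 36.1% called among all genes.

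The Clec4f difference had the same direction in all 4 strata. At 28 days it averaged 54.0 ± 12.7 FPKM in KO DEHP and 71.8 ± 5.45 FPKM in KO CMC, and 46.4 ± 19.2 FPKM in WT DEHP and 58.9 ± 28.3 FPKM in WT CMC (SD, n = 3 each). The KO libraries did not overlap at 28 days, by 65.45 against 65.54 FPKM at the nearest, as for 22.5% of all genes with every DEHP library below every CMC library. At 90 days Clec4f had 39.9, 34.1, 38.3 and 38.0 FPKM in KO DEHP and 50.2, 56.1, 40.3 and 37.8 FPKM in KO CMC, which overlapped. It had 35.4, 32.4, 33.5 and 29.3 FPKM in WT DEHP and 40.5, 55.1, 47.0 and 37.5 FPKM in WT CMC at that time, which did not. The same separation, with DEHP below CMC, held for 4.58% of all genes tested there. The fitted log2 differences were -0.43 in KO and -0.32 in WT at 28 days and -0.27 in KO and -0.44 in WT at 90 days, with adjusted p of 0.298, 0.500, 0.622 and 0.316.

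The call of Clec4f was close to the threshold. It was lost without KO DEHP replicate 7 (adjusted p = 0.0607), WT DEHP replicate 5 (0.0606) or WT CMC replicate 6 (0.0662) of 28 days, with log2 differences of -0.32, -0.27 and -0.28. It was also lost without the 5 libraries holding pancreas transcripts (-0.37, adjusted p = 0.108), and with the mean level of pancreas markers (-0.33, adjusted p = 0.0657) or of endothelial markers (-0.22, adjusted p = 0.0734) as a covariate. Marco joined Clec4f in being called without KO DEHP replicate 4 of 90 days (-0.76, adjusted p = 0.0435), and Csf1r did without WT CMC replicate 7 of 28 days (-0.36, adjusted p = 0.0274). Without the 3 libraries low in endothelial markers Clec4f (-0.36, adjusted p = 0.00487), Vsig4 and Csf1r were called.

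C1qb was the other gene whose DEHP and CMC libraries did not overlap in WT at 90 days. It had 38.2, 32.6, 38.2 and 32.9 FPKM in WT DEHP and 43.1, 55.7, 57.4 and 39.5 FPKM in WT CMC, a log2 difference of -0.44 (SE 0.24, adjusted p = 0.325). Every DEHP library lay below every CMC library there for 4.58% of all genes tested. In KO at that time C1qb had 46.5, 43.1, 41.4 and 65.5 FPKM under DEHP and 53.7, 66.7, 58.3 and 37.4 FPKM under CMC, which overlapped.

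Among the remaining Kupffer cell genes, Vsig4 averaged 29.2 ± 5.96 FPKM in KO DEHP and 32.4 ± 4.0 FPKM in KO CMC, and 23.2 ± 8.86 FPKM in WT DEHP and 25.0 ± 10.6 FPKM in WT CMC at 28 days (SD, n = 3 each). At 90 days it averaged 18.1 ± 4.8 FPKM in KO DEHP and 21.3 ± 4.35 FPKM in KO CMC, and 15.2 ± 0.893 FPKM in WT DEHP and 19.0 ± 1.95 FPKM in WT CMC (SD, n = 4 each). Cd5l pointed the other way at 28 days, with 81.6 ± 28.5 FPKM in KO DEHP and 72.8 ± 8.49 FPKM in KO CMC, and 71.2 ± 31.9 FPKM in WT DEHP and 62.4 ± 28.8 FPKM in WT CMC. At 90 days Cd5l averaged 46.5 ± 7.76 FPKM in KO DEHP and 56.3 ± 15.3 FPKM in KO CMC, and 39.7 ± 3.38 FPKM in WT DEHP and 53.4 ± 12.1 FPKM in WT CMC. Timd4 averaged 4.37 ± 1.18 FPKM in KO DEHP and 3.84 ± 0.200 FPKM in KO CMC at 28 days, and 2.59 ± 0.775 FPKM in KO DEHP and 2.78 ± 0.975 FPKM in KO CMC at 90 days. In WT it averaged 3.70 ± 2.04 FPKM under DEHP and 3.35 ± 1.35 FPKM under CMC at 28 days, and 1.995 ± 0.330 FPKM under DEHP and 2.65 ± 0.758 FPKM under CMC at 90 days. None of these differences was called by the test, which takes its spread from all 8 groups and not from the compared groups alone.

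None of the broader macrophage genes passed the test in any stratum. Csf1r averaged 19.7 ± 4.71 FPKM in KO DEHP and 22.6 ± 2.21 FPKM in KO CMC, and 17.6 ± 8.32 FPKM in WT DEHP and 19.4 ± 10.5 FPKM in WT CMC at 28 days (SD, n = 3 each). At 90 days Csf1r averaged 12.8 ± 3.07 FPKM in KO DEHP and 16.3 ± 3.53 FPKM in KO CMC, and 11.5 ± 1.5 FPKM in WT DEHP and 14.9 ± 1.53 FPKM in WT CMC (SD, n = 4 each). Adgre1 averaged 8.81 ± 3.0 FPKM in KO DEHP and 9.05 ± 1.37 FPKM in KO CMC, and 7.76 ± 4.8 FPKM in WT DEHP and 7.06 ± 4.85 FPKM in WT CMC at 28 days, higher under DEHP in WT. It averaged 5.28 ± 0.647 FPKM in KO DEHP and 6.90 ± 1.73 FPKM in KO CMC, and 4.88 ± 0.360 FPKM in WT DEHP and 6.29 ± 1.31 FPKM in WT CMC at 90 days. Cd68 averaged 10.2 ± 2.79 FPKM in KO DEHP and 8.89 ± 1.59 FPKM in KO CMC at 28 days, the opposite order to WT, where it averaged 7.24 ± 3.52 FPKM under DEHP and 8.72 ± 3.91 FPKM under CMC. At 90 days Cd68 averaged 7.71 ± 2.37 FPKM in KO DEHP and 8.15 ± 2.4 FPKM in KO CMC, and 5.84 ± 0.563 FPKM in WT DEHP and 7.14 ± 0.777 FPKM in WT CMC. C1qa averaged 62.9 ± 13.7 FPKM in KO DEHP and 71.5 ± 3.96 FPKM in KO CMC at 28 days, and 52.2 ± 11.2 FPKM in KO DEHP and 52.1 ± 12.7 FPKM in KO CMC at 90 days. In WT it averaged 57.1 ± 20.4 FPKM under DEHP and 60.9 ± 23.8 FPKM under CMC at 28 days, and 37.6 ± 4.35 FPKM under DEHP and 48.6 ± 6.58 FPKM under CMC at 90 days.

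Whether DEHP acted differently on the markers in the 2 genotypes was tested as an interaction. It called 0 of 10 genes at 28 days, where 0.0178% of all genes were called, and 0 of 10 at 90 days, where 0% were called and 653 of 11213 genes had an unadjusted p under 0.05. The interaction terms of the 10 genes ran from -0.23 for Marco to 0.42 for Cd68 at 28 days and from -0.01 for Adgre1 to 0.43 for Marco at 90 days, all with adjusted p of 0.99 or above and unadjusted p above 0.05.

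Because all 10 genes shared the swings between libraries, each was also set against the mean of the other 9 in the same library, on the log2(FPKM + 1) scale. By this relative level Clec4f separated DEHP from CMC at 28 days in both genotypes. It stood 1.36 ± 0.0514 above the other genes in KO DEHP and 1.70 ± 0.0756 above them in KO CMC, and 1.36 ± 0.0104 in WT DEHP and 1.65 ± 0.117 in WT CMC (SD, n = 3 each), with no overlap in either genotype. Without overlap at 28 days were 4 of the 10 genes in KO and 2 of the 10 in WT by this measure. The share over all genes was not computed for it. On plain levels at 28 days 2152 of 11213 genes lay above and 2521 below without overlap in KO, and 1728 above and 1232 below in WT. Separation of 3 libraries from 3 was thus common among all genes on plain levels. How many of all genes separated in both genotypes was not computed. The separation of Clec4f is therefore not read as particular to this gene. At 90 days Clec4f stood 1.38 ± 0.325 above the other 9 genes in KO DEHP and 1.42 ± 0.375 in KO CMC, and 1.51 ± 0.0760 in WT DEHP and 1.52 ± 0.194 in WT CMC (SD, n = 4 each), with overlap in both genotypes. The lowest values at that time, 0.902 in KO DEHP replicate 4 and 0.869 in KO CMC replicate 3, were those of the libraries highest in Marco, which is one of the other 9. The ratio of Clec4f to C1qb in FPKM was 0.848 ± 0.076 in KO DEHP and 1.01 ± 0.0402 in KO CMC, and 0.773 ± 0.0754 in WT DEHP and 0.941 ± 0.0715 in WT CMC at 28 days. These relative levels were looked at after the values were seen and carry no test.

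Few of the other genes separated by relative level. In KO at 28 days Cd5l (0.26) and Timd4 (0.27) stood higher, and Csf1r (-0.10) lower, under DEHP than under CMC without overlap. In WT at 28 days Cd68 (-0.21) stood lower under DEHP, and in KO at 90 days C1qa (0.28) stood higher. None of these was without overlap in both genotypes at 1 time. Between the genotypes Cd68 stood higher in KO than in WT under DEHP at 28 days (0.26), Vsig4 under CMC at 28 days (0.11) and C1qb under DEHP at 90 days (0.15), each in 1 stratum of 4. A relative level mixes a gene's own difference with that of the other 9. The share over all genes was not computed for any of these. On plain levels KO libraries lay above WT libraries for 6.09% and below for 3.07% of all genes under DEHP at 28 days. The shares were 8.39% and 1.98% under CMC at 28 days, and 5.64% and 1.69% under DEHP at 90 days. With 1 of the 10 genes in each of these strata, the separations are not read as particular to the genes named.

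**Figure D4:**
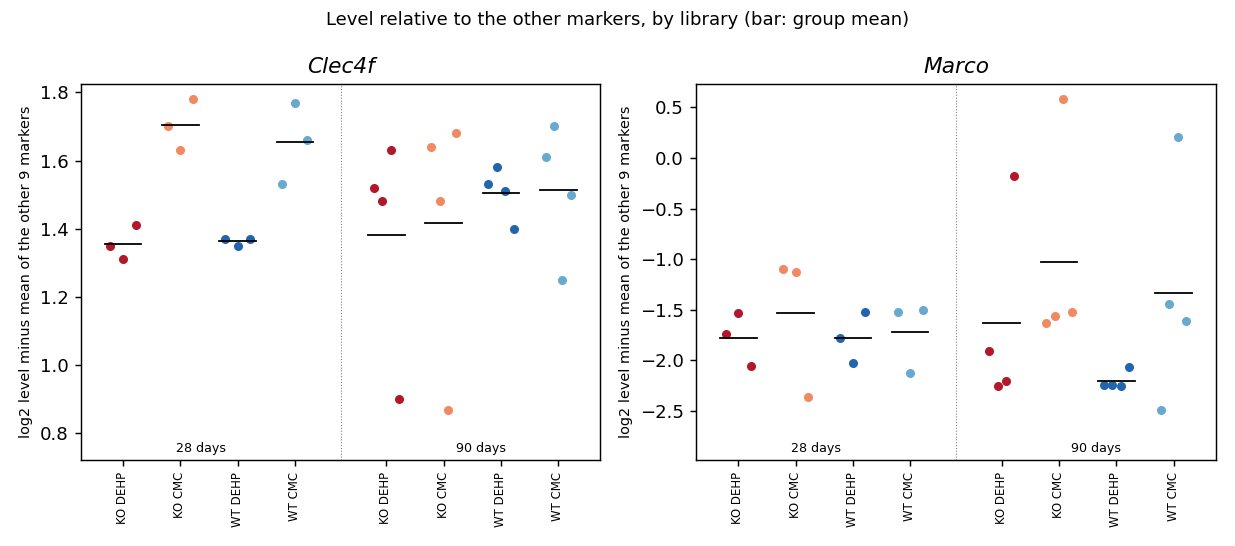
Log2(FPKM + 1) of Clec4f and of Marco minus the mean of the other 9 markers in the same library (points), with bars at group means. The Clec4f values of 28 days lie between 1.31 and 1.41 under DEHP and between 1.53 and 1.78 under CMC, and those of 90 days overlap, the lowest being KO DEHP replicate 4 and KO CMC replicate 3. The separation at 28 days is not read as particular to Clec4f.

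Other genes of Kupffer cells and of the myeloid lineage were read from lists compiled with earlier results of these data known. Over the mean of the 4 strata, DEHP against CMC, 4 of 16 other Kupffer cell genes fell and 1 rose. Of all 11213 genes tested 36.1% were called in this comparison, 1772 lower and 2272 higher, so the count is near the background. Those that fell were Id3 (-0.63), a factor needed for Kupffer cell development in mice, Cd207 (-0.62), a lectin, Fcna (-0.55), a ficolin of the lectin complement pathway, and Cfp (-0.33), or properdin. Cfp was close to the threshold (adjusted p = 0.0447) and was lost in 21 of 39 alternatives. Hpgd, which inactivates prostaglandins and is also expressed outside macrophages, rose by 0.54. The median of the 16 was -0.16, near that of the 10 markers.

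Fcna averaged 30.6 FPKM in KO DEHP and 56.0 FPKM in KO CMC, and 30.9 FPKM in WT DEHP and 45.8 FPKM in WT CMC at 28 days. In KO at that time 2 of 16 were called also within the stratum, against 20.4% of all genes. They were Fcna (-0.87, adjusted p = 0.00902) and Id3 (-1.24, adjusted p = 0.0130). Fcna was lost there without KO DEHP replicate 5 and in a fit on the libraries of 28 days alone, and Id3 without KO DEHP replicate 7 or KO CMC replicate 6. In WT at 28 days 0 of 16 were called, against 16.5% of all genes. At 90 days Hpgd alone was called, in KO (1.06), against 5.65% of all genes, and in WT (0.73), against 6.8%. The KO call was lost with pancreas markers as a covariate, and the WT call without WT DEHP replicate 4 or WT CMC replicate 3. The interaction of genotype and DEHP at 28 days was not called for Fcna or Id3, with adjusted p of 1.

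In the Csf1r axis, over the mean of the strata, Csf1 (-0.36) and Il34 (-0.29), the ligands of Csf1r, fell under DEHP, while Csf1r itself was not called (-0.24, SE 0.15, adjusted p = 0.213). Csf2rb, the shared receptor chain for GM-CSF, Il3 and Il5, rose by 0.54. Cells other than macrophages also express Csf1 and Il34, and the cell of origin cannot be read from whole tissue.

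Genes of macrophage activation were mostly low. Of 15 cytokine and activation genes 8 could be tested, and Tnf, Il6, Il10, Ccl3, Cxcl2 and Nos2 were under 1 FPKM in every library. Il1rn, which encodes the antagonist of the interleukin-1 receptor and is also made by hepatocytes, rose under DEHP by 1.10 (adjusted p = 1.58e-06), with 5.37 FPKM in KO DEHP and 0.943 FPKM in KO CMC, and 5.09 FPKM in WT DEHP and 1.24 FPKM in WT CMC at 28 days. Ccl9, a chemokine, fell by 0.27. Of 10 tested monocyte and recruited macrophage markers Cd9, a tetraspanin that is not limited to macrophages, rose by 0.41 and none fell. These calls are over the mean of the 4 strata, where 36.1% of all 11213 genes tested were called. The counts on these lists were not above that share. None of 17 lysosome, phagocytosis and Fc receptor genes and none of 6 class II genes was called, with medians of -0.10 and 0.07, but 3 of the 17 were called lower without WT CMC replicate 7 of 28 days.

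Of 9 macrophage genes known as PPARgamma targets 4 rose under DEHP over the mean of the strata, and none was called between the genotypes. The share of all genes called in that DEHP comparison was 36.1%, with 2272 of 11213 higher. The 4 were Lpl (3.03), which releases fatty acids from lipoproteins, Cd36 (2.69), a fatty acid importer and scavenger receptor, Fabp4 (1.57), a fatty acid binding protein, and Plin2 (0.73), a lipid droplet coat. Hepatocytes can express these genes too, and which cells they came from cannot be told apart here.

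Markers of neighbouring cells moved under DEHP beside the 10 genes. Over the mean of the strata, where 1772 of 11213 genes were called lower, 7 of 10 stellate cell and matrix markers fell, with a median of -0.50, 9 of 10 hepatocyte markers fell, with a median of -0.45, and 1 of 13 endothelial markers, Ehd3 (-0.44), fell, with a median of -0.24 over the 13. The endothelial count was 8 of 13 without WT CMC replicate 7 of 28 days, and also without all 3 libraries low in these markers. None of 4 tested neutrophil, 5 lymphocyte, 5 erythroid, 12 exocrine pancreas markers and 1 dendritic cell marker was called, with medians of -0.19, -0.02, -0.29, 2.05 and -0.05. Of the pancreas markers 11 were called higher without WT CMC replicate 4 and 9 without KO DEHP replicate 4 of 90 days, and 1 lymphocyte marker was called lower without KO CMC replicate 7 of 28 days. Summed endothelial markers at 28 days ran from 190 to 228 FPKM in KO DEHP and from 253 to 261 FPKM in KO CMC, and from 63.4 to 265 FPKM in WT DEHP and from 91.0 to 269 FPKM in WT CMC. At 90 days they ran from 81.3 to 183 FPKM in KO DEHP and from 178 to 199 FPKM in KO CMC, and from 137 to 171 FPKM in WT DEHP and from 180 to 198 FPKM in WT CMC. In these the DEHP libraries lay below the CMC libraries in KO at 28 days and in WT at 90 days, as for Clec4f. Summed stellate and hepatocyte markers also lay below without overlap in both, and hepatocyte markers in WT at 28 days as well. Of all genes tested 22.5% did so in KO at 28 days and 4.58% in WT at 90 days. The part of these neighbouring cells in the Clec4f difference was not tested beyond the endothelial covariate.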

How the data were processed

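RNA of whole liver was extracted with Trizol and made into Illumina TruSeq libraries, per the labels' protocols. The authors deposited FPKM per gene for all 28 libraries, named after Cuffdiff and the build mm10, or GRCm38, in the submitters' processing notes. The aligner, tool versions and strand setting are not given in the sources used here. FPKM holds no counts, so depth was approximated from the steps between small values of 2688 genes. Of the 17792 genes 17743 matched RefSeq on GRCm38.p6.

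Groups were taken from the labels. A gene was tested where 3 or more libraries reached 1 FPKM, which left 11213 genes. They were fitted as log2(FPKM + 1), a scale that understates changes of low genes, with limma 3.58.1 in R 4.3.3 over all 8 groups, with 20 residual and 4.17 prior degrees of freedom. Tests were two-sided, with Benjamini-Hochberg adjustment over all genes tested and a threshold of 0.05. Differences are KO over WT and DEHP over CMC, in each stratum and as the mean of the 4 strata. Summaries used Python 3.11.15 with pandas 2.3.3, numpy 2.4.6 and matplotlib 3.10.9. The fitting steps were tested on simulated data. No 2 libraries were identical.

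The 10 genes and the 15 lists of other genes were chosen with earlier results of these data known. All 10 genes are named, and genes of other lists where they were called or where the text says otherwise. The list of myeloid factors is not reported here as a whole. The 5 genes most like the mean of the 10 are named by their correlation.

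Alternatives were a pseudocount of 0.1, no filter, a filter of 5 FPKM, 2 other scalings, library weights, a replicate block, fits on fewer groups and leaving out each library. Leaving out libraries with at least 0.5% of pancreas transcripts or with endothelial markers under 0.6 of the group median, and covariates for both, were added after seeing the data. Replicate numbers recur between groups. Deviations of libraries with the same number correlated above 0.1 in every pair only for DEHP against CMC in WT at 90 days (0.22 to 0.665), where the block left 0 of the 10 genes called. The 0.665 was that of the replicates 4, which both held pancreas transcripts, and the part of these was not tested. For KO against WT under DEHP at 90 days the pairs ran from -0.591 to 0.0231.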

Additional observations from a re-analysis of the deposited data

Results flagged for a closer look

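Within the groups of 4 libraries of 90 days, 5 of the 40 combinations of gene and group held a library whose gap to its nearest neighbour exceeded the 95% critical share of the group's range (Dixon's test). Chance gives about 1 in 20 such groups, and the 10 genes are not independent. KO DEHP replicate 4 accounted for 4 of them. It was high in Vsig4, at 25.29 FPKM against 15.2 to 16.0 FPKM in the other KO DEHP libraries, in Marco, at 18.96 FPKM against 2.43 to 3.8 FPKM, and in C1qa, at 68.7 FPKM against 44.3 to 48.0 FPKM. It was low in Adgre1, at 4.32 FPKM against 5.49 to 5.70 FPKM. This library was low in endothelial markers, at 81.3 FPKM against 169 to 183 FPKM in the other KO DEHP libraries, and held 0.00811% of pancreas transcripts against 1.39% to 5.90%. The part of either in these values was not tested. The remaining one was KO CMC replicate 3, which held 33.55 FPKM of Marco against 4.26 to 7.59 FPKM in the other KO CMC libraries. At neither time did any of the 10 genes move one way in all KO libraries and the other way in all WT libraries under DEHP.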

How the results depend on the processing

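Of 2900 values of the 10 genes under alternatives, 2890 stayed on the same side of the threshold, 6 lost a call, 4 gained one and 0 reversed a call, while 211 values that were not called changed sign. The count of called genes moved only for DEHP against CMC over the mean of the 4 strata. There it was 1, and 0 to 2 when single libraries were left out. It was 0 without the libraries holding pancreas transcripts and with either covariate, and 3 without the libraries low in endothelial markers. The cause was not tested. The planned changes of pseudocount, filter, scaling, weights and replicate block kept it at 1. With the replicate block Clec4f had a log2 difference of -0.37 and adjusted p = 0.0204, and the block changed no other call among the 10. The paired numbers gave 756 called genes against 762 without the block in WT at 90 days. Between the genotypes the block moved the count over all genes from 57 to 31 for KO against WT under DEHP at 90 days and from 2 to 1 at 28 days. Over the mean of the strata it moved from 44 to 25.

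Counts over all genes moved more. For DEHP against CMC they ran over the alternatives from 1712 to 3358 (2284 as reported) in KO and 926 to 3184 (1850) in WT at 28 days, and from 57 to 912 (633) in KO and 304 to 1109 (762) in WT at 90 days. For KO against WT they ran from 0 to 218 (2) under DEHP and 1 to 8 (5) under CMC at 28 days, from 10 to 135 (57) under DEHP and 1 to 5 (1) under CMC at 90 days, and from 15 to 153 (44) over the mean. Interactions ran from 0 to 3 (2) and from 0 to 30 (0). Lyz2 was lost under DEHP at 28 days in the fit of 2 groups. With library weights the median difference of the 10 genes was -0.12 for KO against WT under DEHP and 0.19 for DEHP against CMC in WT, both at 28 days. Fits of 1 time or of 2 groups were not run for the means of 4 strata. Depth limits most the genes with the fewest approximate fragments, Timd4, Marco and Cd68.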
